A study of Mus musculus with 2 samples.

Results

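The genes described here are 10 members of the VEGF and angiopoietin pathways, chosen by symbol from the 24984 gene symbols measured: the VEGF ligands Vegfa, Vegfb and Vegfc, the VEGF receptors Kdr and Flt1, their co-receptor Nrp1, the angiopoietins Angpt1 and Angpt2, the angiopoietin receptor Tek and its partner Tie1. All 10 had an entry in both libraries. Their RNA was counted in single cells of mouse hind limb muscle. Both groups were mdx mice, a dystrophin-deficient model of Duchenne muscular dystrophy, and both carried the Pax7CreERT2/R26YFP alleles and received tamoxifen daily by intraperitoneal injection in their second month of life, with muscle taken about a month later. The control group (Ctrl) was Yy1+/+ and the knockout group (dKO) was Yy1 f/f, so tamoxifen removed Yy1, which encodes a zinc finger DNA-binding protein that activates or represses genes, only where the Pax7 locus drives Cre, in muscle stem cells (MuSCs). Live mononuclear cells were sorted without a cell type gate, so intact muscle fibres were not sampled. Each group was 1 droplet library made from pooled mice, so a difference between Ctrl and dKO has no replicate check and no test was made. A level is given as CPM, the unique molecular identifiers (UMIs, each 1 captured RNA molecule) of a gene in counts per 1000000 UMIs of the named cells. A ratio is the dKO level divided by the Ctrl level, and ranges in brackets are 95% intervals that cover counting error only. The terms higher and lower therefore compare these libraries, not the genotypes.

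VEGF-A is the main growth signal of blood vessels. It binds KDR (VEGFR2), the receptor that drives endothelial growth and survival, and FLT1 (VEGFR1), which binds it more tightly, signals weakly and is also released as a soluble decoy. VEGF-B has FLT1 as its only receptor kinase and also binds NRP1, VEGF-C acts chiefly on lymphatic endothelium through FLT4 (VEGFR3), and NRP1 holds VEGF-A next to KDR. Angiopoietin 1, made by cells around vessels, activates TEK (TIE2) and keeps vessels quiet, while angiopoietin 2, released by endothelial cells, mostly opposes it. TIE1 has no strong ligand of its own and modulates TEK. In skeletal muscle a dense capillary bed surrounds each fibre, and VEGF-A from fibres, stromal cells and macrophages takes part in its regrowth after injury.

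In GRCm38 (GENCODE M21) Kdr lies on the minus strand of chr5:75932827-75978458 and Flt1 on the minus strand of chr5:147561604-147726011. Tek lies on the plus strand of chr4:94739289-94874976 and Tie1 on the minus strand of chr4:118471191-118490061. Nrp1 (chr8:128358604-128503363, plus strand), Vegfc (chr8:54077606-54187096, plus strand) and Angpt2 (chr8:18690263-18741562, minus strand) share chromosome 8. Vegfa is at chr17:46016993-46032369, Vegfb at chr19:6982473-6987651 and Angpt1 at chr15:42424723-42676977, all on the minus strand. UMIs were counted over whole genes, so splice forms such as soluble FLT1 were not separated.

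The promoters of the 4 receptors that were highest in endothelial cells are shown because these genes shared a cell type but not the direction of their difference between the libraries. Each run is the 250 bases before the RefSeq start (GRCm38.p6), read 5′ to 3′ on the gene's strand, and capitals mark AGGAAG or CGGAAG on either strand, the letters that ETS factors of endothelial cells bind.
Kdr (chr5:75978456-75978705, minus strand): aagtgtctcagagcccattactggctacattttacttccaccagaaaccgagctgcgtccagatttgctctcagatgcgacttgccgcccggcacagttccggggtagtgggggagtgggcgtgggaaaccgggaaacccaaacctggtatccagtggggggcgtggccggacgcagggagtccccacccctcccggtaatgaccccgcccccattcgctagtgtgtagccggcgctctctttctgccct
Flt1 (chr5:147726012-147726261, minus strand): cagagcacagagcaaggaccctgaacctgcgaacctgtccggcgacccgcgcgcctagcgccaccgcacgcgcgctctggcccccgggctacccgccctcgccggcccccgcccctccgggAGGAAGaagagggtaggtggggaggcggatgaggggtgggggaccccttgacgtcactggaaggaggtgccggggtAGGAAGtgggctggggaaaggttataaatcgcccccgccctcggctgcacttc
Tek (chr4:94739039-94739288, plus strand): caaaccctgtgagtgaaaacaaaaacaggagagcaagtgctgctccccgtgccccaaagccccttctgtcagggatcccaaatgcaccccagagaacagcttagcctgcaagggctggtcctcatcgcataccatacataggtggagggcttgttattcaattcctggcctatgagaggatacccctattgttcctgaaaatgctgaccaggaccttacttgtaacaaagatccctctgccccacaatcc
Tie1 (chr4:118489850-118490099, minus strand): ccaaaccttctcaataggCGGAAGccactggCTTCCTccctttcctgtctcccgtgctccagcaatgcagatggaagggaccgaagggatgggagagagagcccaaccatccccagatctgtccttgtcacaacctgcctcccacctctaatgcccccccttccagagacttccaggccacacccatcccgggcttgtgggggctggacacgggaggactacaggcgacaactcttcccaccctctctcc
The Flt1 run held AGGAAG at 129 and 53 bases before the start, and the Tie1 run held CGGAAG at 232 and the reverse complement of AGGAAG at 219. The Kdr and Tek runs held neither, which says only that these letters are not in this window. In all, 8 of the 10 genes matched a RefSeq entry, with 9 promoters, and 3 of the 9 (Flt1, Tie1 and Nrp1) held at least 1 of the pair, beside 39.2% of 32851 promoters of the same length. GCCATNTT, the core letters bound by YY1, was in 0 of the 9 and in 3.91% of all. ACGTG, bound by hypoxia-inducible factors (HIFs), was in 1 of the 9 and in 16.6% of all. That window belongs to a Vegfa entry at chr17:46025164-46025413, which lies inside the gene. The Vegfa window at the 5′ start of the gene (chr17:46032378-46032627) did not hold it. Angpt1 and Angpt2 are named only.

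The Ctrl library held 4527 cells and 45556596 UMIs and the dKO library 3483 cells and 33815155 UMIs, with medians of 7697 and 7615 UMIs per cell. After removal of cells under 500 genes and of likely doublets, 4010 Ctrl and 3079 dKO cells were kept, in 13 cell classes named from marker genes, of which 11 had at least 20 cells in each library. The libraries shared 7 cell barcodes. In MuSC-like cells (117 and 30) Yy1 had 369 Ctrl and 3 dKO UMIs, 160 and 4.85 CPM (ratio 0.0304, 0.00623 to 0.0894), and in the other 10 classes its ratio was between 0.676 and 1.28. Endothelial cell (EC)-like cells numbered 466 in Ctrl, a share of 11.6% (10.6 to 12.7), and 179 in dKO, a share of 5.81% (5.01 to 6.70). The share was -5.81 percentage points apart in dKO (-7.09 to -4.51). Stromal cells with the markers of fibro-adipogenic progenitors (FAPs) made up 28.3% in Ctrl against 38.5% in dKO, and monocyte and macrophage (MO/MP)-like cells 35.5% and 36.8%. The summed level of 11 pan-endothelial markers in EC-like cells was 9349 CPM in Ctrl and 9108 CPM in dKO, with none of the 11 at 0. Single markers differed within it, with Pecam1 at a ratio of 1.10 (1.03 to 1.17), Cdh5 at 0.832 (0.775 to 0.893) and Cldn5 at 0.835 (0.770 to 0.905). The class also held RNA of pericytes, whose 9 markers summed to 567 CPM in Ctrl and 287 CPM in dKO, and the part of that in the results for EC-like cells was not tested.

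Over all kept cells together, the receptors were lower in dKO and Vegfa and Angpt1 were higher. Kdr was 59.5 CPM in Ctrl and 18.1 CPM in dKO, a ratio of 0.304 (0.277 to 0.334). Tie1 was 24.8 and 8.13 CPM (ratio 0.327, 0.284 to 0.376) and Flt1 120 and 56.8 CPM (ratio 0.474, 0.448 to 0.501). Angpt2 was 5.93 and 2.99 CPM (ratio 0.505, 0.392 to 0.645). These 4 of the 10 were lower by 1.5-fold or more, and 0 were higher by as much, beside 8.30% of 13570 genes lower and 3.80% higher. Nrp1 (ratio 0.803), Vegfb (0.828) and Tek (0.781) were lower by less, each with an interval below 1. Vegfa had 1867 Ctrl and 1858 dKO UMIs, 45.8 and 61.1 CPM, a ratio of 1.34 (1.25 to 1.42), and Angpt1 was 16.4 and 23.3 CPM (ratio 1.42, 1.28 to 1.59). Vegfc stood at 13.9 and 14.1 CPM with an interval that held 1. In such whole-library sums a change in class make-up and a change of level within classes cannot be told apart. The ratio was therefore recomputed with 1 of the 2 held fixed.

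Class make-up here is each class's share of the library's UMIs, so it mixes the number of cells with the UMIs per cell. For EC-like cells this share was 6.56% in Ctrl and 2.87% in dKO. Every class was first kept at its Ctrl level and only the make-up was taken from dKO. The ratio was then 0.455 for Flt1, 0.467 for Tie1, 0.483 for Kdr and 0.636 for Angpt2. With the make-up of Ctrl and the class levels of dKO, it was 1.05 for Flt1, 0.991 for Tek, 0.867 for Angpt2, 0.713 for Tie1 and 0.604 for Kdr. For Flt1 only the make-up value lay below 1, and for Kdr and Tie1 both values did. Vegfa was at 1.01 by make-up alone and 1.33 by class levels alone. These are recomputed values of 2 libraries, with no test. Angpt1 was at 1.30 by make-up alone and 1.06 by levels alone, and 88.8% of its Ctrl UMIs and 96.3% of its dKO UMIs lay in FAP-like cells. The plot of whole-library ratios and their parts shows all 10.

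**Figure D1:**
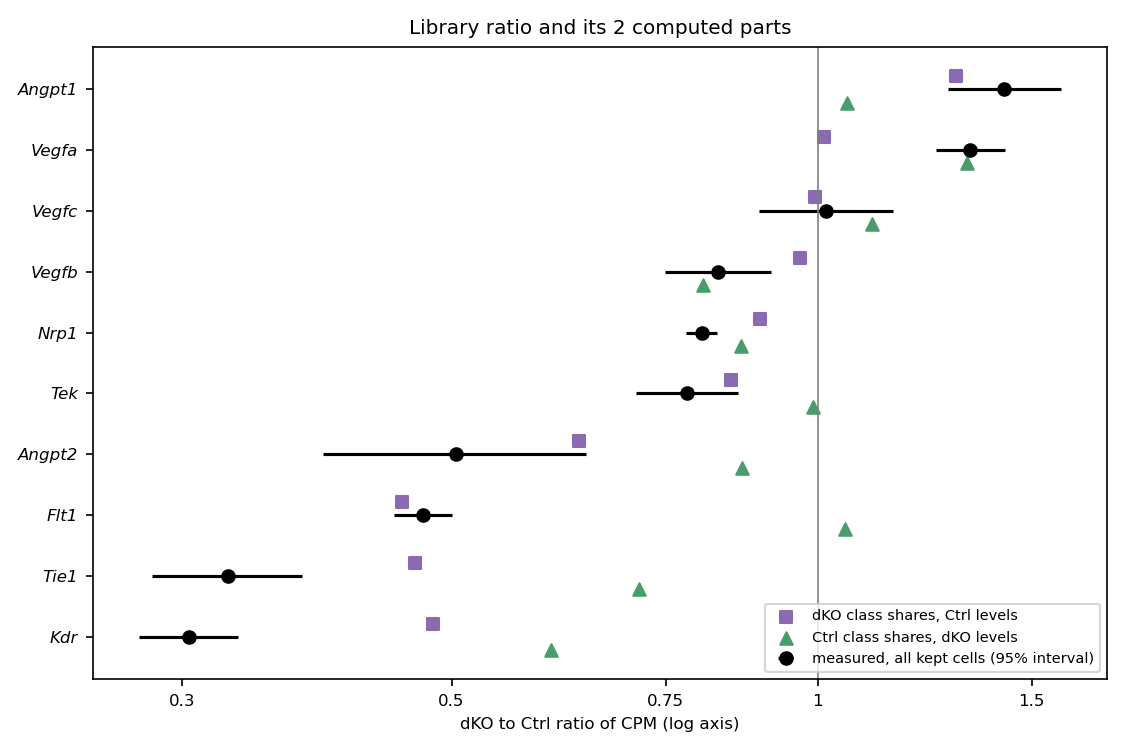
Ratio of dKO to Ctrl CPM of each of the 10 genes over all kept cells (circles, with 95% counting intervals), with squares for the ratio from class make-up alone and triangles for that from class levels alone, on a log axis. Make-up is each class's share of the UMIs. Flt1 has its square at 0.455 and its triangle at 1.05, Kdr has both below 1, and Vegfa has its square at 1.01 and its triangle at 1.33.

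Across the 11 classes, 6 of the 10 genes (Kdr, Flt1, Nrp1, Tek, Tie1 and Vegfc) were highest in EC-like cells in both libraries, and the interval of each stood apart from that of the class ranked next. In Ctrl the next class was mural-like cells for all 6, smooth muscle and pericytes in 1 class. EC-like cells held 88.1% of the Flt1 UMIs in Ctrl and 90.1% in dKO, 87.5% and 88.3% for Tie1, and 80.7% and 73.6% for Kdr. Tek, Nrp1 and Vegfc were spread wider. Of the Vegfc UMIs, EC-like cells held 27.1% and 15.2% and FAP-like cells 55.9% and 73.4%. EC-like cells held 50.04% and 33.2% of the Tek UMIs, and FAP-like cells 41.9% and 63.8%. Of the Nrp1 UMIs, EC-like cells held 26.3% and 11.02%, FAP-like cells 33.3% and 53.3%, and MO/MP-like cells 29.4% and 29.9%. Angpt1 was highest in FAP-like cells in both libraries. Angpt2 was highest in mural-like cells and then in EC-like cells, with intervals that overlapped. Vegfb was highest in MuSC-like cells in Ctrl and mural-like cells in dKO, and their intervals overlapped with those of the class ranked next. Vegfa was highest in MO/MP-like cells in Ctrl, with an overlap too, and in dKO in a small cycling cluster where 1 cell held 39 of the 68 UMIs, ahead of MO/MP-like cells.

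**Figure D2:**
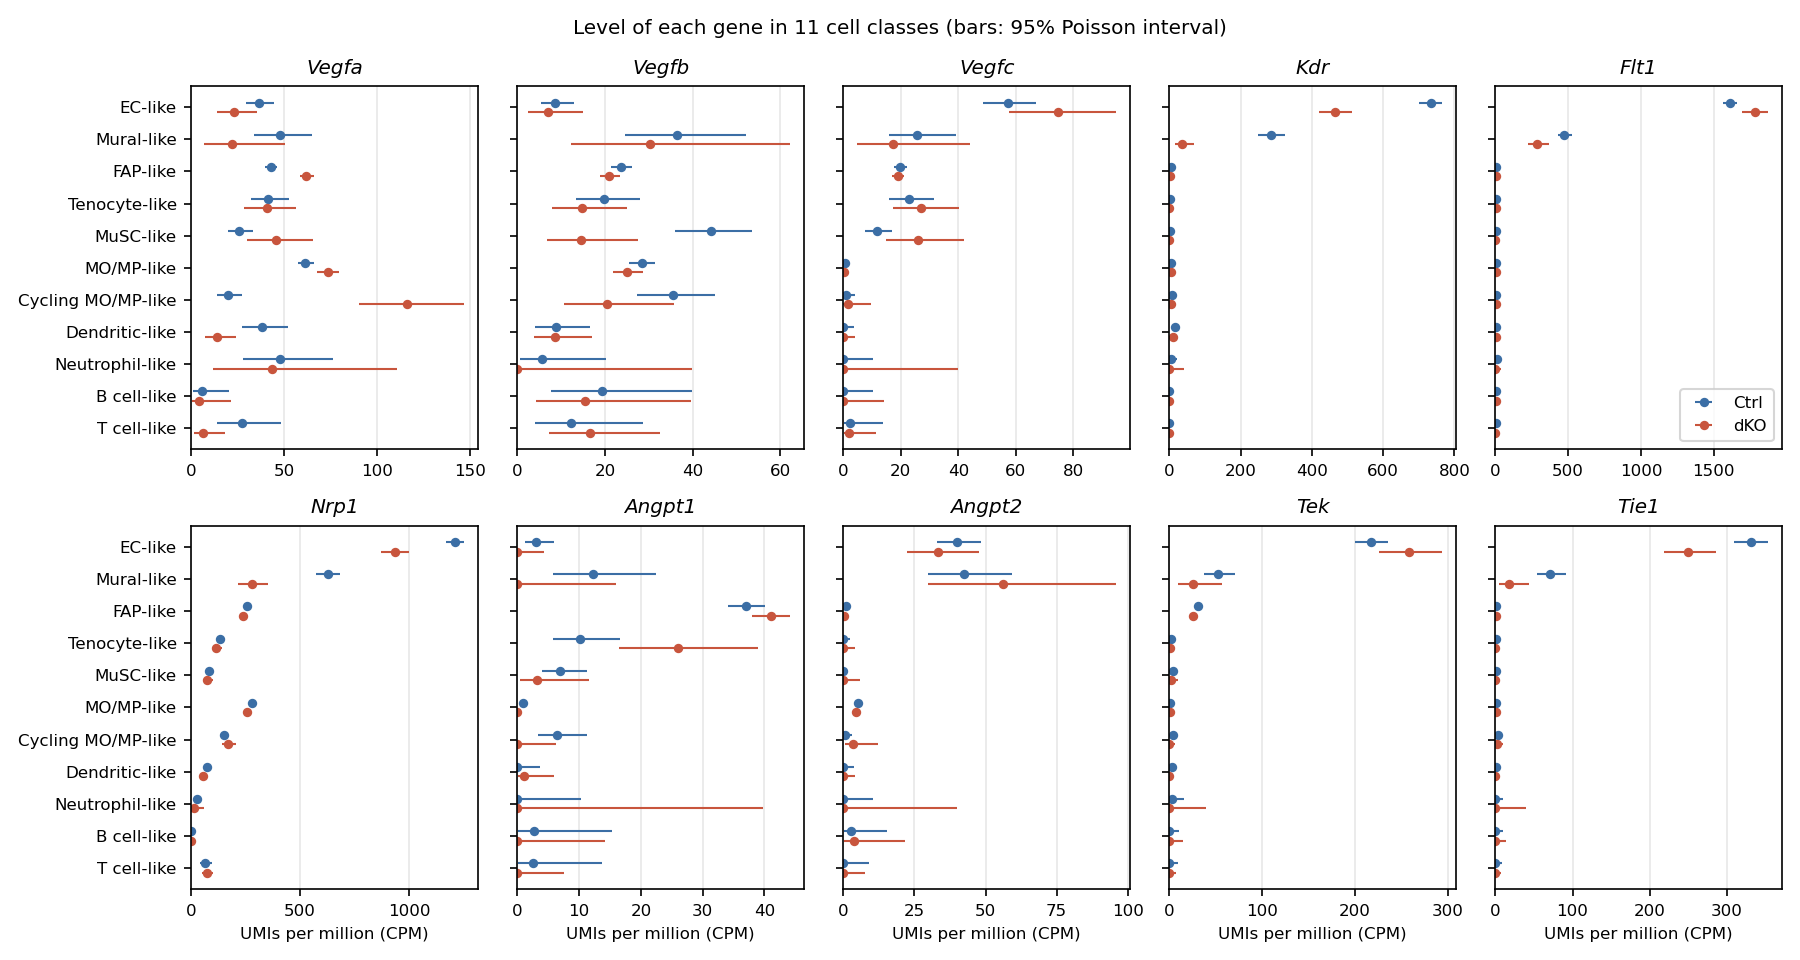
Level in CPM of each of the 10 genes in the 11 cell classes, Ctrl and dKO side by side, with bars for exact Poisson 95% intervals. Kdr, Flt1, Nrp1, Tek, Tie1 and Vegfc peak in EC-like cells, Angpt1 peaks in FAP-like cells, and Vegfa and Vegfb are spread over several classes.

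Counting each gene in each of the 11 classes gave 110 pairs, of which 38 had at least 50 UMIs over both libraries. Of these 38, 2 were higher by 1.5-fold or more in dKO and 11 were lower. Over all genes in the same classes 6.85% of 58451 pairs were higher and 8.07% lower. The interval lay above 1 for 6 pairs and below 1 for 14, and held 1 for 18. A pair could pass the floor of 50 UMIs through either library.

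In EC-like cells the 2 VEGF receptors went opposite ways. Kdr had 1961 UMIs in Ctrl and 405 in dKO, 733 and 465 CPM, a ratio of 0.634 (0.568 to 0.706). Flt1 had 4310 and 1555 UMIs, 1611 and 1784 CPM, a ratio of 1.11 (1.04 to 1.17). Kdr was therefore lower and Flt1 slightly higher within the class, although without removal of doublets the Flt1 ratio was 1.01. Of the EC-like cells, 78.8% in Ctrl and 65.4% in dKO held a Kdr UMI, with medians of 4697.5 and 3802 UMIs per cell. After thinning of each cell to 2000 UMIs (67 Ctrl and 36 dKO cells were too shallow), the shares were 63.4% (58.5 to 68.1) and 45.5% (37.1 to 54.0). For Flt1 they were 94.8% and 97.2%, or 88.2% and 90.2% when thinned. None of the 142 Ctrl and 87 dKO B cell-like cells, which should lack Kdr, held a UMI of it.

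The co-receptor Nrp1 was 1212 CPM in Ctrl and 934 CPM in dKO (ratio 0.770, 0.713 to 0.832), and the orphan receptor Tie1 was 331 and 250 CPM (ratio 0.755, 0.648 to 0.877). The angiopoietin receptor Tek was 218 and 258 CPM (ratio 1.19, 1.01 to 1.39), higher where its partner Tie1 was lower. The share of cells with a Tie1 UMI was 73.6% in Ctrl and 56.4% in dKO, or 48.4% and 35.7% when thinned, and that with a Tek UMI 57.5% and 60.3%, or 35.3% and 40.6% when thinned. Vegfc was 57.2 and 74.6 CPM (0.960 to 1.75) and Angpt2, on 107 and 29 UMIs, had a ratio of 0.832 (0.532 to 1.26), neither apart from a ratio of 1. Vegfa was low, at 97 Ctrl and 20 dKO UMIs, 36.3 and 22.9 CPM (ratio 0.633, 0.370 to 1.03). With cells thinned to 2000 UMIs the ratio was 0.226 for Vegfa, 0.550 for Vegfc and 0.429 for Angpt2. Of the 8 genes with at least 50 UMIs in EC-like cells, 0 were higher and 2 (Vegfa and Kdr) lower by 1.5-fold or more, beside 5.90% and 11.1% of 6781 genes. Their median log2 ratio was -0.32, beside -0.05 over those 6781 genes.

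EC-like cells formed 3 clusters, and their mix differed between the libraries. The capillary EC-like cluster, led by Gpihbp1 and Timp4, held 294 EC-like cells of Ctrl (63.1%) against 97 of dKO (54.2%), with 58.4% and 40.2% of the class's UMIs. The venous EC-like cluster, led by Selp and Sele, held 108 and 50 cells, and the arterial EC-like cluster, led by Cytl1 and Gkn3, 64 and 32. Kdr was itself a leading gene of the capillary cluster, so its order over the clusters is no result. Within that cluster Kdr was 1072 CPM in Ctrl and 914 CPM in dKO (ratio 0.852, 0.754 to 0.961), with a median of 4 UMIs per cell in Ctrl and 3 in dKO and a highest cell of 37 and 19. In venous cells Kdr was 305 and 185 CPM (ratio 0.606, 0.453 to 0.801), and in arterial cells 131 and 119 CPM (0.509 to 1.58). The Kdr interval thus lay below 1 in capillary and venous cells and held 1 in arterial cells. In venous cells Cldn5 also had 62 UMIs in Ctrl and 6 in dKO, and the pericyte marker Rgs5 278 and 0. The part of these in the Kdr ratio was not tested. With the 3 clusters weighted by their UMI shares in Ctrl, the Kdr ratio of the class was 0.823 in place of 0.634.

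Flt1 was 1774 and 2250 CPM in capillary cells (ratio 1.27, 1.17 to 1.37) and 1573 and 1939 CPM in arterial cells (ratio 1.23, 1.07 to 1.42). In venous cells it was 1311 and 1233 CPM, with an interval that held 1 (0.839 to 1.05). The median cell of the capillary cluster held 7 Flt1 UMIs in Ctrl and 6 in dKO, where the median depth was 3970.5 and 2787 UMIs. Tek was 193 and 283 CPM in capillary cells (ratio 1.46, 1.15 to 1.84), and its interval held 1 in venous cells (247 and 232 CPM) and arterial cells (263 and 261 CPM). Tie1 was 380 and 274 CPM in capillary cells (ratio 0.721, 0.575 to 0.896) and 252 and 194 CPM in venous cells (0.574 to 1.02), but 289 and 313 CPM in arterial cells (0.758 to 1.53). The capillary cluster therefore held both the higher Flt1 and Tek and the lower Tie1.

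Nrp1 was 1624 and 1685 CPM in capillary cells (ratio 1.04, 0.947 to 1.13), 587 and 385 CPM in venous cells (ratio 0.655, 0.537 to 0.796) and 762 and 517 CPM in arterial cells (ratio 0.679, 0.527 to 0.869). With the Ctrl mix of clusters its class ratio was 0.956 in place of 0.770. The 9 pericyte markers summed to 672 and 708 CPM in capillary, 428 and 2.89 CPM in venous and 397 and 5.68 CPM in arterial cells, and venous Cldn5 had 62 and 6 UMIs. The part of these in the Nrp1 ratios was not tested. Of the ligands, Vegfc was chiefly arterial, at 355 CPM in Ctrl and 233 CPM in dKO (ratio 0.657, 0.447 to 0.9499). In capillary cells it had 9 UMIs in each library, 5.76 CPM in Ctrl and 25.7 CPM in dKO (ratio 4.46, 1.57 to 12.7), and 1 cell held 4 of the Ctrl and 1 cell 5 of the dKO UMIs. Vegfa was also highest in arterial cells, at 164 and 73.9 CPM (ratio 0.450, 0.224 to 0.841). In capillary cells Vegfa had 31 UMIs in Ctrl and 0 in dKO, 2.32-fold lower with 3 UMIs put in place of 0, a value that does not include counting error. Angpt2 was 32.6 and 37.1 CPM in capillary and 66.8 and 46.3 CPM in venous cells, with intervals that held 1. Weighting by the Ctrl mix gave class ratios of 1.18 for Flt1, 1.22 for Tek, 0.768 for Tie1 and 0.401 for Vegfa.

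**Figure D3:**
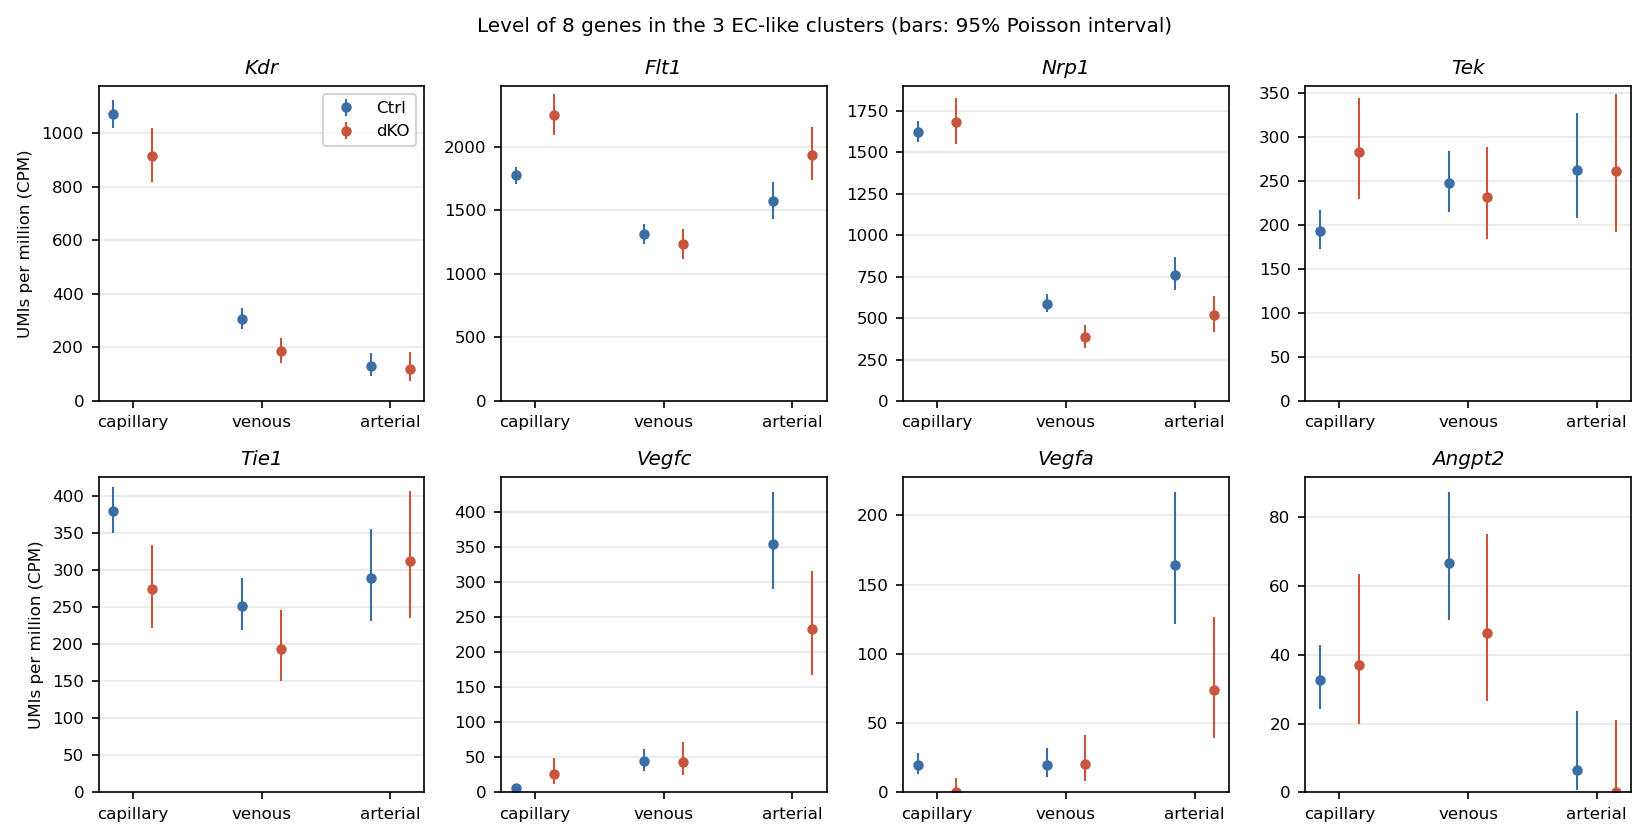
Level in CPM of 8 of the genes in the capillary, venous and arterial EC-like clusters, Ctrl and dKO side by side, with exact Poisson 95% intervals. In capillary cells Flt1 and Tek stand higher in dKO and Kdr and Tie1 lower, and in venous and arterial cells Nrp1 stands lower in dKO.

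Mural-like cells (107 in Ctrl, 38 in dKO) surround vessels and do not normally make KDR or TIE1. Of the 4 genes with at least 50 UMIs there, all 4 were lower in dKO by 1.5-fold or more and 0 were higher, beside 15.6% and 8.55% of 3485 genes. Kdr was 285 and 34.6 CPM (ratio 0.121, 0.0518 to 0.243), Flt1 475 and 289 CPM (ratio 0.610), Nrp1 628 and 276 CPM (ratio 0.440) and Tie1 70.6 and 17.3 CPM (ratio 0.245). Without the cell holding most UMIs in each library the ratio was 0.0533 for Kdr and 0.0706 for Tie1, and with doublets kept 0.186 and 0.407. The 11 endothelial markers summed to 2609 CPM in Ctrl and 1624 CPM in dKO with none at 0. Among them Cdh5 was 438 and 160 CPM (ratio 0.365), Pecam1 268 and 194 CPM (ratio 0.726, 0.515 to 1.005) and Cldn5 266 and 294 CPM (ratio 1.10, 0.827 to 1.45). The mural mix differed as well, with 9 pericyte markers at 12674 and 6506 CPM, among them Rgs5 at 8525 and 3676 CPM, and 7 smooth muscle markers at 20665 and 26986 CPM. The part of these in the ratios was not tested. After cells with any UMI of Pecam1, Cdh5 or Cldn5 were left out, an alternative chosen after seeing the data, 75 Ctrl and 33 dKO cells remained. They held 3 and 0 Kdr UMIs, 4 and 7 Flt1 UMIs, 0 and 0 Tie1 UMIs and 1 and 0 Tek UMIs, so most receptor UMIs of the class lay in cells that also held an endothelial marker. Nrp1 remained at 154 and 130 CPM (ratio 0.845, 0.504 to 1.37). Angpt2, which activated pericytes and endothelium can make, was 42.6 and 56.2 CPM in all mural-like cells (0.640 to 2.56) and 53.5 and 56.6 CPM in those left.

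In FAP-like cells Vegfa was the ligand whose class interval lay apart from 1. It had 686 UMIs in Ctrl and 1030 in dKO, 42.8 and 61.8 CPM, a ratio of 1.45 (1.31 to 1.59), or 1.18 as the mean of each cell's own CPM. Its value was higher in dKO in each of the 4 FAP-like clusters, with an interval above 1 in 3 of them. In the cluster led by Eln and Sfrp1 it was 22.1 and 35.0 CPM (ratio 1.58, 1.24 to 2.01), where 1 dKO cell held 23 of 161 UMIs and the highest Ctrl cell 4. In that led by Cxcl5 and Il1rl1, which also held cell cycle genes, it was 52.4 and 77.6 CPM (ratio 1.48, 1.21 to 1.81). The share of cells with a Vegfa UMI there was 55.9% in Ctrl and 48.8% in dKO, or 8.70% and 12.9% when thinned. In the cluster led by Itpkc and Ptx3, with the stress gene Dnaja4 among its leading genes, it was 41.1 and 50.3 CPM (ratio 1.22, 1.04 to 1.45). The cluster led by Efhd1 and Pi16, markers of stem-like fibroblasts, had the highest level, 120 and 143 CPM (0.972 to 1.47). FAP-like cells held 36.7% of all Vegfa UMIs in Ctrl and 55.4% in dKO, beside 39.3% and 54.8% of the UMIs of all genes.

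Angpt1 was 37.0 and 41.0 CPM in FAP-like cells (ratio 1.11, 0.992 to 1.24). It was highest in the Eln and Sfrp1 cluster, at 53.3 and 76.4 CPM (ratio 1.44, 1.23 to 1.68). In the Efhd1 and Pi16 cluster it was 25.7 and 14.9 CPM (ratio 0.581, 0.331 to 1.01), on 33 and 25 UMIs. Vegfb, at 23.7 and 21.0 CPM, and Vegfc, at 19.7 and 18.9 CPM, had intervals that held 1 in the class, although the Vegfb ratio was 0.573 with cells thinned and 0.887 without. Vegfc was lower in the Cxcl5 and Il1rl1 cluster, 35.2 and 20.4 CPM (ratio 0.580, 0.427 to 0.785), and higher in the Eln and Sfrp1 cluster, 14.3 and 19.98 CPM (ratio 1.39, 1.02 to 1.90). Nrp1, which FAP-like cells share with endothelium and macrophages, was 256 and 236 CPM (ratio 0.921, 0.881 to 0.962).

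Tek was the receptor with a sizeable level in FAP-like cells, 30.4 CPM in Ctrl and 25.9 CPM in dKO (ratio 0.854, 0.749 to 0.974), and 1 cluster stood apart. In the Efhd1 and Pi16 cluster Tek was 162 and 123 CPM (ratio 0.760, 0.624 to 0.926), while the other 3 FAP-like clusters lay between 3.06 and 31.7 CPM. There 68.6% of 137 Ctrl cells and 66.0% of 153 dKO cells held a Tek UMI, or 26.8% and 29.5% when thinned, with medians of 9115 and 10955 UMIs per cell. Pecam1 stood at 3.11 and 0.597 CPM in the same cells, Cdh5 at 5.45 and 0.597 CPM and Cldn5 at 1.56 and 0.597 CPM. The other markers of the endothelial list are not given for these cells. Once cells holding an endothelial marker were left out, Tie1 was at 1 and 0 UMIs and Tek still at 166 and 124 CPM. Tek was lower in dKO in the Cxcl5 and Il1rl1 cluster as well, 8.62 and 3.06 CPM (ratio 0.355, 0.163 to 0.733). Kdr and Flt1 were near the floor, at 3.31 and 1.92 CPM (ratio 0.581) and 3.93 and 2.04 CPM (ratio 0.520, or 0.189 with cells thinned), and without cells holding an endothelial marker their ratios were 0.751 (0.452 to 1.24) and 0.670 (0.411 to 1.08). Of the 8 genes with 50 UMIs in the class, 0 were higher and 2 (Kdr and Flt1) lower by 1.5-fold or more, beside 3.26% and 4.17% of 11518 genes, and their median log2 ratio was -0.15.

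**Figure D4:**
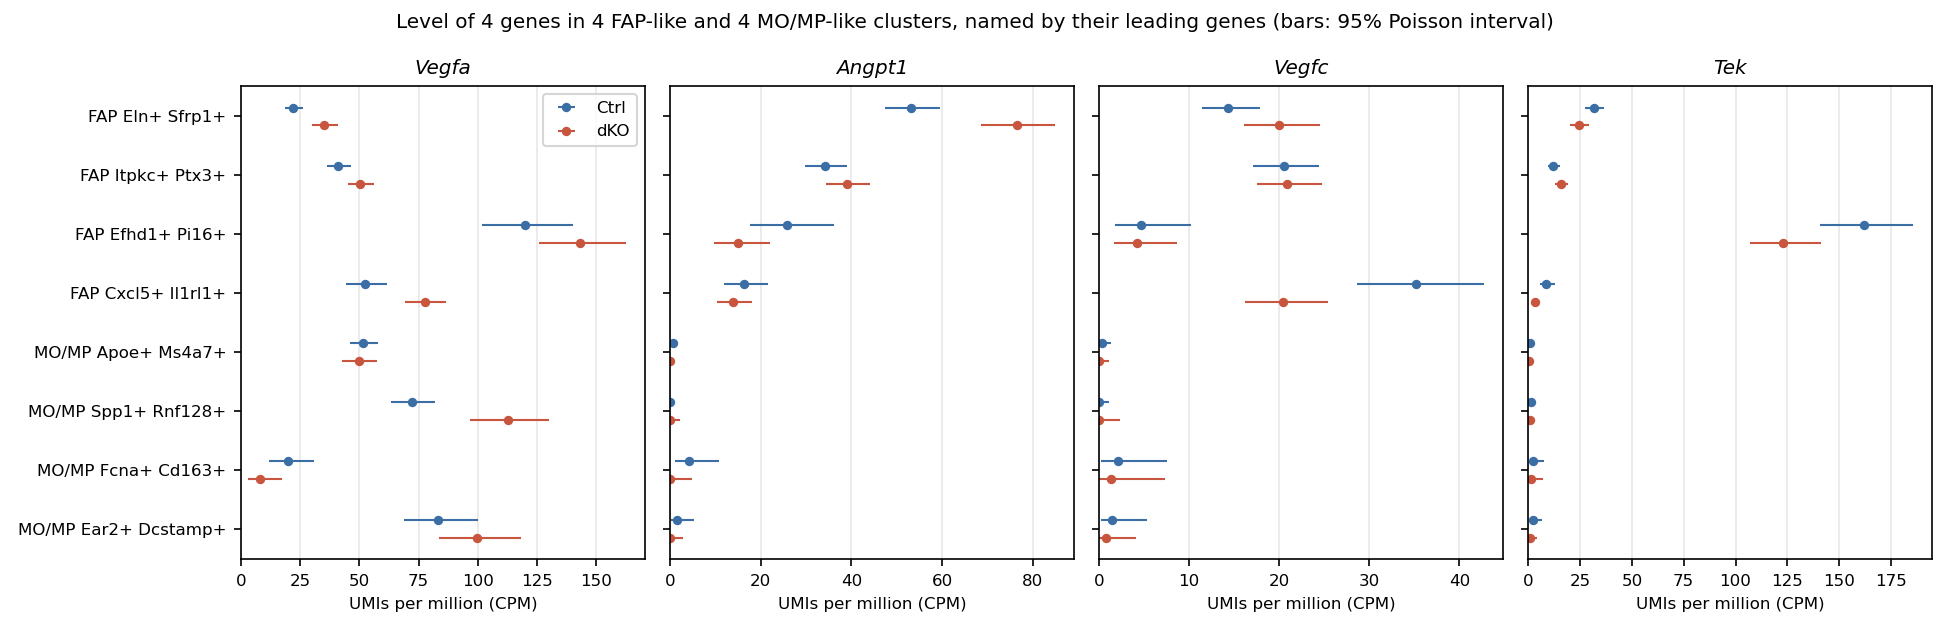
Level in CPM of Vegfa, Angpt1, Vegfc and Tek in 4 FAP-like and 4 MO/MP-like clusters, Ctrl and dKO side by side, with exact Poisson 95% intervals. Tek stands at 162 and 123 CPM in the Efhd1 and Pi16 cluster, Angpt1 peaks in the Eln and Sfrp1 cluster, and Vegfa is above 110 CPM in the Efhd1 and Pi16 cluster of both libraries and in the Spp1 and Rnf128 cluster of dKO.

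In MO/MP-like cells Vegfa was 61.3 CPM in Ctrl and 73.2 CPM in dKO (ratio 1.195, 1.08 to 1.33). Of the 4 clusters given here, that led by Spp1 and Rnf128 had an interval above 1, at 72.2 and 113 CPM (ratio 1.56, 1.28 to 1.90). In the cluster led by Apoe and Ms4a7 it was 51.6 and 49.7 CPM (0.793 to 1.16), in that led by Ear2 and Dcstamp 83.4 and 99.9 CPM (0.927 to 1.55), and in the cluster of resident-type macrophages led by Fcna and Cd163 only 19.9 and 7.85 CPM, on 19 and 6 UMIs. Nrp1 was 276 and 255 CPM (ratio 0.923, 0.875 to 0.974), and in the Fcna and Cd163 cluster it was 506 and 429 CPM (ratio 0.849, 0.735 to 0.978). Vegfb (28.4 and 25.1 CPM) and Angpt2 (5.17 and 4.28 CPM) had intervals that held 1, and so did Kdr and Flt1 below 8 CPM. Of the 6 genes with 50 UMIs, 0 were higher and 0 lower by 1.5-fold or more, beside 4.98% and 4.69% of 9985 genes. Angpt1 had 11 UMIs in Ctrl, 4 of them in 1 cell, and 0 in dKO, 2.41-fold lower with 3 UMIs put in place of 0. That value does not include counting error.

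The class named MuSC-like, in which Yy1 UMIs were nearly absent in dKO, also held differentiating myocytes. Its leading genes included Myod1 and Cdh15 but also Ttn, Myog and Mymx, and in dKO 10 myocyte markers summed to more than 10 MuSC markers, at 4460 and 3939 CPM. In this class 3 genes had at least 50 UMIs. Vegfb was 44.1 CPM in Ctrl and 14.5 CPM in dKO, on 102 and 9 UMIs, a ratio of 0.329 (0.146 to 0.650). Of the 9 dKO UMIs, 1 cell held 4. Vegfa was 25.5 and 45.2 CPM, on 59 and 28 UMIs (ratio 1.77, 1.09 to 2.82), and Nrp1 82.7 and 72.7 CPM (0.621 to 1.22). The Vegfb ratio lay between 0.172 and 0.622 over the alternatives. The Vegfa ratio was 1.15 with doublets kept and 3.73 with cells thinned. Hence 1 was higher and 1 lower by 1.5-fold or more, beside 10.4% and 16.0% of 6279 genes. Vegfc was 11.7 and 25.9 CPM on 27 and 16 UMIs (ratio 2.21, 1.11 to 4.26). In Ctrl the myocyte markers had summed to 2611 CPM and the MuSC markers to 4931 CPM, so the mix moved with these values, and its part in the ratios was not tested. The sums of FAP and MO/MP markers in this class, given below, were also lower in dKO, and their part was not tested.

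Among the smaller classes, 1 cluster of 104 and 35 cells was led by cell cycle genes such as Nusap1 and Mki67. Its name in the plots, cycling MO/MP, rests on 15 enriched MO/MP markers, but in Ctrl 8 neutrophil markers summed to 17975 CPM there, above 10409 CPM for 16 MO/MP markers, and in dKO to 404 CPM beside 6704 CPM. The ratios in this cluster therefore set unlike mixes of cells side by side. Vegfa had 37 and 68 UMIs, 19.9 and 116 CPM (ratio 5.83, 3.85 to 8.95). Of the 68 dKO UMIs 39 (57.4%) came from 1 cell, and without the cell holding most UMIs in each library the ratio was 3.49, with doublets kept 3.78 and with cells thinned 3.12. Vegfb had 66 and 12 UMIs there, 35.4 and 20.4 CPM (ratio 0.577, 0.284 to 1.08). In dendritic cell-like cells Vegfa had 39 and 13 UMIs, 38.1 and 14.0 CPM (ratio 0.367, 0.180 to 0.702), but 0.664 as the mean of each cell's own CPM and 1.04 with cells thinned to 2000 UMIs. In tenocyte-like cells Angpt1 had 16 and 23 UMIs, 10.2 and 26.0 CPM (ratio 2.55, 1.29 to 5.16).

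The other genes of the pathway were read from 5 lists, with calls again at 1.5-fold among genes with 50 UMIs. The capillary cluster held 58.4% of the UMIs of EC-like cells in Ctrl and 40.2% in dKO. The part of this mix in the EC-like ratios of the listed genes was not tested. In EC-like cells 0 of 4 tested family members (Pgf, Flt4, Nrp2 and Ptprb) were called. Of 5 tested adaptors that bind KDR or TEK, Tnip2 was higher (ratio 1.59, 0.986 to 2.51) and Gab1, a docking protein, lower (ratio 0.599, 0.370 to 0.933). Of 10 genes that VEGF induces in endothelium, 2 were higher and 3 lower, beside 5.90% and 11.1% of all genes tested in the class. The higher were Plaur, the urokinase receptor, at 54.6 and 127 CPM (ratio 2.33, 1.81 to 3.01), and Rcan1, a calcineurin inhibitor, at 232 and 358 CPM (ratio 1.54, 1.34 to 1.77). The lower were Apln, a tip cell peptide, at 34.4 and 10.3 CPM (ratio 0.3002, 0.133 to 0.595), the Notch ligand Dll4 at 101 and 47.0 CPM (ratio 0.464, 0.326 to 0.647) and the nuclear receptor Nr4a1 at 282 and 182 CPM (ratio 0.646, 0.541 to 0.768). The median log2 ratio of the list was -0.03, beside -0.05 over all genes tested in the class.

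Of 14 tested HIF genes and targets in EC-like cells, 3 were higher and 1 lower, beside the same 5.90% and 11.1%. The higher were the oxygen sensor Egln3 (26 and 29 UMIs, ratio 3.42, 1.95 to 6.05), Ankrd37, a hypoxia-induced ankyrin repeat gene (47 and 30 UMIs, ratio 1.959, 1.196 to 3.16) and the glucose transporter Slc2a1 (53.1 and 102 CPM, ratio 1.92, 1.46 to 2.52). The peptide hormone Adm was lower, 73.6 and 21.8 CPM (ratio 0.296, 0.174 to 0.475). Vegfa, itself a HIF target, was lower in value in this class too, with an interval that held 1. Of 4 tested soluble regulators, the matrix protein Sparc was lower, 3854 and 2540 CPM (ratio 0.659, 0.629 to 0.690). The median log2 ratio was 0.27 for the HIF list, 0.02 for the soluble regulators, 0.16 for the adaptors and -0.22 for the other family members. The plot of their ratios shows all of them. In FAP-like cells the largest differences were Angpt4, an angiopoietin, on 20 and 66 UMIs (ratio 3.18, 1.90 to 5.53), Slc2a1 at 22.1 and 45.8 CPM (ratio 2.07, 1.82 to 2.35) and Ero1l, an oxidase of the endoplasmic reticulum and a HIF target, at 29.8 and 52.4 CPM (ratio 1.76, 1.57 to 1.97). The other called gene of the family there was Vegfd, a ligand of FLT4 named after its values were seen, at 31.6 and 47.8 CPM (ratio 1.51, 1.35 to 1.70), and its ratio lay between 1.43 and 1.496 in each of the 4 clusters. In MO/MP-like cells 1 family member, Pgf, named after its values were seen, was higher (47 and 60 UMIs, ratio 1.94, 1.30 to 2.91). The 3 largest differences there were the endothelial phosphatase Ptprb (63 and 15 UMIs, ratio 0.362, 0.192 to 0.644), the collagen Col18a1 (49 and 12 UMIs, ratio 0.373, 0.180 to 0.711) and the growth response factor Egr3 (80 and 24 UMIs, ratio 0.456, 0.277 to 0.728). In the same MO/MP-like cells the endothelial marker Cdh5 had 65 and 13 UMIs (ratio 0.304, 0.154 to 0.557) and the 11 endothelial markers summed to 59.2 and 44.4 CPM, and their part in the Ptprb and Col18a1 ratios was not tested. By list, 2 of 13 HIF genes were higher and 0 lower in FAP-like cells (median log2 ratio 0.28), beside 3.26% and 4.17% of all genes tested there. In MO/MP-like cells 0 of 15 passed in either direction (median 0.14), beside 4.98% and 4.69%. In mural-like cells 3 of 3 other family members (Pgf, Nrp2 and Ptprb) were lower, beside 15.6% of all genes and the pericyte and endothelial marker levels given above. In MuSC-like cells 3 of 4 soluble regulators were lower and 0 higher, namely Thbs1, Sema3a and Col18a1, beside 16.0% and 10.4% of all genes. In those cells 11 FAP markers summed to 924 and 452 CPM and 16 MO/MP markers to 498 and 77.6 CPM, and the collagen gene Col1a1 was 115 and 24.2 CPM. Their part was not tested. These 2 groups were named after their values were seen.

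**Figure D5:**
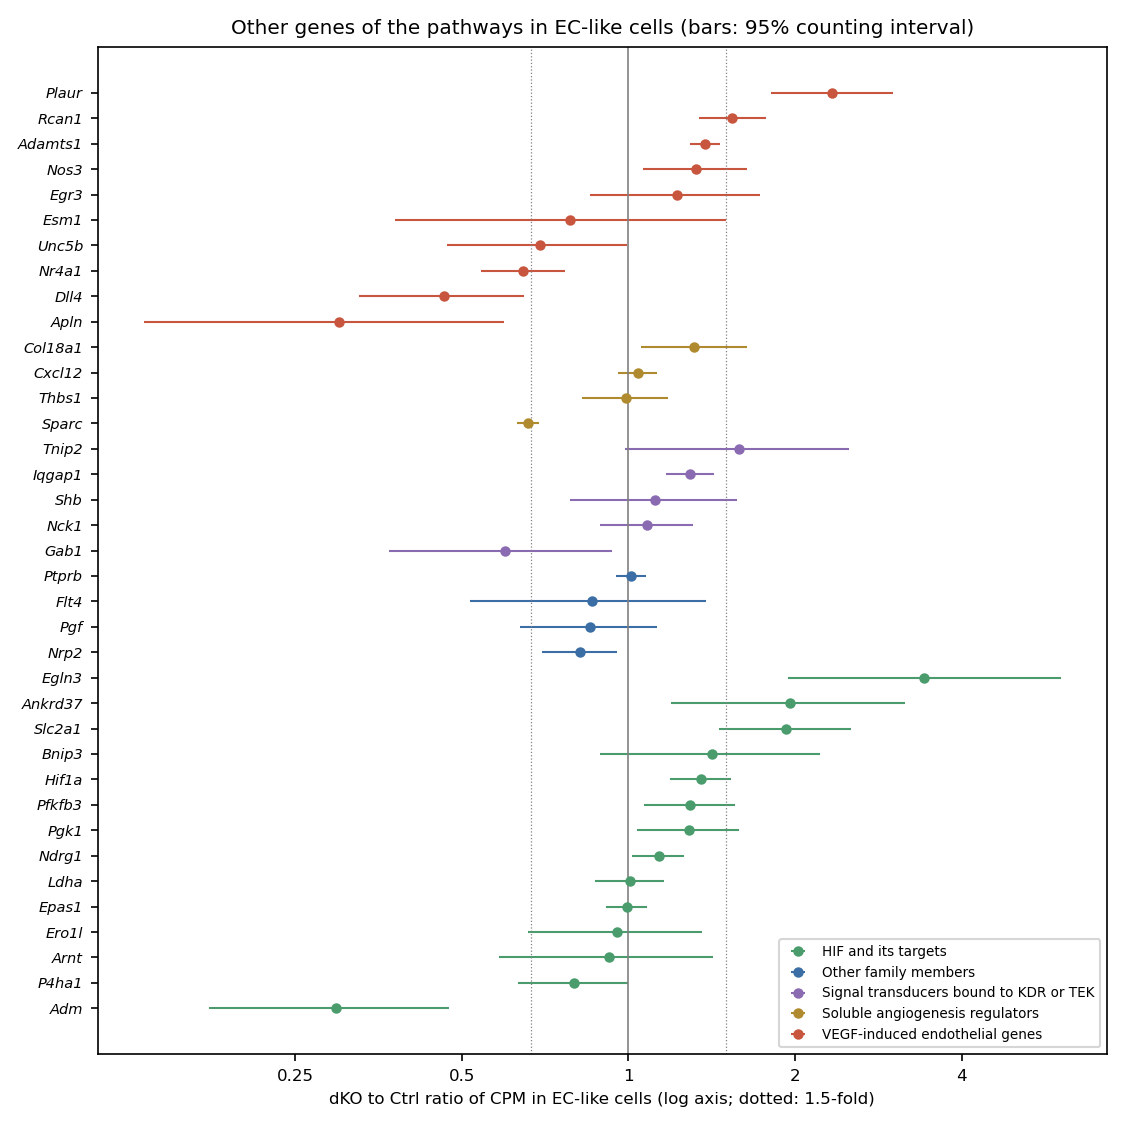
Ratio of dKO to Ctrl CPM in EC-like cells for the other pathway genes with at least 50 UMIs, by list, on a log axis with 95% counting intervals and dotted lines at 1.5-fold. Egln3 and Plaur lie farthest to the higher side, at 3.42 and 2.33, and Adm and Apln to the lower side, at 0.296 and 0.3002.

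The genes whose levels were most like each member were ranked over 22 profiles, the 11 classes in each library, by Pearson's r of log2(CPM + 10) among 12517 genes with at least 100 UMIs. These profiles share 2 libraries and the values are descriptions. Adgrl4, an endothelial adhesion receptor, was nearest to both Kdr (r = 0.982) and Tie1 (r = 0.998), with C130074G19Rik next for both (0.979 and 0.997) and Ushbp1 (0.978) and Robo4 (0.994), a guidance receptor of endothelium, after it. Flt1 was nearest to Ptprb, Podxl and Mmrn2 (r = 0.994, 0.993 and 0.989), and Tek to Fgd5, Edn1 and Clec14a (0.972, 0.971 and 0.970). Nrp1 was nearest to Aplp2, Spata6 and Elk3 (0.919, 0.911 and 0.904) and Vegfc to Mindy4, Tjp1 and Jcad (0.966, 0.960 and 0.958). Angpt2 had the profile of Gja4, Apold1 and Chst1 (0.970, 0.969 and 0.964), of which Gja4 is a gap junction gene of arteries and mural cells. Angpt1 was nearest to Ccl19, Eda and Ccn5 (0.941, 0.936 and 0.936). Vegfa and Vegfb had no close match, at r = 0.734 to 0.724 for Tmem43, Tbc1d24 and Ctsl and r = 0.826 to 0.823 for Atp5a1, Mpv17l2 and Ivd.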

How the data were processed

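The authors prepared 10x droplet libraries and deposited whole-number UMI counts of each gene in each barcode called as a cell, neither normalized nor filtered further. Per the file headers the counts were written by Cell Ranger 3.0.2, while the submitters' processing notes name Cell Ranger 7.0.0, Seurat 4.3.0 and the mm10 build. The 24984 gene symbols include 0 mitochondrial genes. Cells with at least 500 genes were kept (192 Ctrl and 154 dKO cells were left out). Scrublet (scanpy 1.11.5, 30 principal components) called 4 and 14 cells at its own threshold, so the 7.5% of cells with the highest scores (325 and 250) were removed. Libraries were integrated and clustered in Seurat 5.3.0 (2000 variable genes without the 10 genes described, 40 dimensions, resolution 0.8), giving 22 clusters, of which 1 MO/MP-like cluster is not reported here. Clusters were named from marker lists that hold none of the 10 genes, given at least 3 markers enriched 2-fold. UMIs were summed per class and library. Intervals are exact Poisson for levels, conditional binomial for ratios and Clopper-Pearson for shares. Those for ratios and shares were checked on simulated counts drawn independently, so the check does not cover UMIs that cluster in single cells. No test was made with 1 library per group.

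The genes named are the 10 members, the listed pathway genes called in EC-like cells, the 3 with the largest log2 ratio in FAP-like and in MO/MP-like cells, and the 3 genes most like each member. The members and lists were chosen with earlier results of these data known. Alternatives covered doublets, cell filters, integration, resolution, scaling, thinning, pseudocount and single cells.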

Additional observations from a re-analysis of the deposited data

Results flagged for a closer look

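For 3 genes the ratio of dKO to Ctrl lay above 1 in 1 cell class and below 1 in another, with counting intervals that did not hold 1. With 1 library per group the difference between the classes was not tested, and the values are given as ratios of the 2 ratios. For Vegfa the lower class was dendritic cell-like cells, at 0.367, against 5.83 in the cycling cluster (15.9 times), whose mix of neutrophil and MO/MP markers differed between the libraries,, 1.77 in MuSC-like cells (4.83 times), 1.45 in FAP-like cells (3.94 times) and 1.195 in MO/MP-like cells (3.26 times). All 4 rest on the 39 and 13 Vegfa UMIs of the dendritic cell-like cells, whose ratio was 1.04 with cells thinned to 2000 UMIs. Flt1 was at 1.11 in EC-like cells against 0.520 in FAP-like cells (2.13 times) and 0.610 in mural-like cells (1.82 times). With doublets kept the EC-like ratio was 1.01. Without cells holding an endothelial marker the ratio was 0.670 in FAP-like cells, with an interval that held 1 (0.411 to 1.08), and 4.63 in mural-like cells, on 4 and 7 UMIs, so neither Flt1 contrast held under these alternatives. Tek was at 1.19 in EC-like cells against 0.854 in FAP-like cells (1.39 times).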

How the results depend on the processing

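No paired analysis was possible because each group had 1 library and no test was made. The 10 genes and the EC-like share were recomputed under the alternatives. Of 467 recomputed values of 48 ratios, 414 moved by less than their counting interval, 51 moved by more and 2 that had been past 1.5-fold reversed. The 51 values came from 34 of the 48 ratios, so most ratios moved by more than their interval under at least 1 alternative. Some that had been under 1.5-fold also crossed 1, such as Vegfc in EC-like cells (1.30, and 0.550 with cells thinned). The 2 reversed were Vegfa in dendritic cell-like cells, at 1.04 with cells thinned to 2000 UMIs, and Flt1 in mural-like cells, at 4.63 without cells holding an endothelial marker (4 and 7 UMIs, an alternative chosen after seeing the data). The count of gene and class pairs past 1.5-fold, 13, was 20 with cells thinned to 2000 UMIs. The 12 pathway genes called in EC-like cells were 7 with at least 200 UMIs and 5 at 2-fold. Of the 30 most similar genes 7 remained with log2(CPM + 1). The cause was not tested. The 6 genes highest in EC-like cells kept that number under each alternative, and the EC-like difference lay between -5.21 and -5.90 points. Depth limits the smaller classes of dKO most, where 3 UMIs stand for 32.4 CPM in neutrophil-like, 12.96 in mural-like and 11.6 in B cell-like cells, against 0.180 in FAP-like cells.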

Other observations

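Lymphatic EC-like cells (18 in Ctrl and 13 in dKO) were too few for the comparisons above, and these values were looked at after the data were seen. They held Flt4, the receptor of VEGF-C and VEGF-D, at 1015 CPM in Ctrl and 1126 CPM in dKO, and Kdr at 645 and 672 CPM (ratio 1.04, 0.694 to 1.55). Tie1 was 237 and 172 CPM, on 25 and 11 UMIs, and Tek 133 and 109 CPM, on 14 and 7 UMIs. Flt1 and Nrp1 had 0 UMIs in both libraries, where 3 UMIs would stand for 28.5 CPM in Ctrl and 46.9 CPM in dKO and the exact Poisson upper limits were 35.0 and 57.7 CPM. The Kdr level thus had no lower value in dKO in this class, and the difference from the 3 blood vessel clusters was not tested.

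Pgf, the placental growth factor that binds FLT1, was level in EC-like cells as a whole, 87.5 and 74.6 CPM (ratio 0.853, 0.637 to 1.13), but not in their clusters. In capillary cells it was 136 and 57.1 CPM, on 212 and 20 UMIs (ratio 0.421, 0.252 to 0.666), and in arterial cells 68.9 and 233 CPM, on 21 and 41 UMIs (ratio 3.38, 1.95 to 6.02).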
